A study of Mus musculus with 24 samples.

Results

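A group of 10 genes, Idh1, Etfb, Zfp239, Zfp72, Atp6v1d, Dact3, Plcb4, Ccdc117, Myo6 and Adh7, were followed by genotype in mouse testis RNA. They were listed because their RNA was lower in round spermatids homozygous for a knock-in allele of Ddx4, so their homozygous levels in that cell type are given as a description, with no test. All 10 were found among 55364 genes in the round spermatid tables and 55401 in the CB tables, and all 10 passed the filter on low counts in both kinds of library (17809 and 19335 genes passed). Round spermatid RNA came from wild-type mice and from mice heterozygous or homozygous for the Ddx4 knock-in (n = 2 libraries each). CB RNA came from heterozygous and homozygous knock-in animals (n = 3 libraries each), and none of the 24 libraries is of wild-type CB RNA. The labels use CB without saying what it stands for and call these cells germ cells only. The labels give neither the change carried by the knock-in allele nor the age or strain of the animals, and all groups share testes dissociated by digestion in 2 steps. They do not say that libraries of a group came from separate animals, so p-values measure the spread among these libraries alone, part or all of which may be technical.

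DDX4 is a DEAD-box RNA helicase of germ cells, found in the granules where these cells hold RNA and process PIWI-interacting RNAs. Round spermatids are the haploid cells that follow meiosis; they store transcripts that are translated later, when the acrosome and the condensed sperm head form. The 10 genes belong to no single pathway. Idh1 encodes the cytosolic isocitrate dehydrogenase, which makes NADPH, and Etfb a subunit of the electron transfer flavoprotein, which carries electrons from acyl-CoA dehydrogenases to the respiratory chain. Adh7 encodes an alcohol dehydrogenase that also oxidises retinol. Atp6v1d encodes a stalk subunit of the V-ATPase, the proton pump that acidifies organelles such as the acrosome. Plcb4 encodes a phospholipase C that acts below Gq-coupled receptors, Dact3 a Dishevelled-binding protein of Wnt signalling, and Myo6 a myosin that moves towards the minus end of actin filaments. Zfp239 and Zfp72 encode zinc finger proteins, and Ccdc117 a coiled-coil protein.

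The genes lie on 9 chromosomes (all positions in GRCm38.p6): Idh1 on chromosome 1 from 65158616 to 65186479, Plcb4 on chromosome 2 from 135658603 to 136014602, Adh7 on chromosome 3 from 138198064 to 138232042, Zfp239 on chromosome 6 from 117862024 to 117872766, and both Dact3 (16875317 to 16887301) and Etfb (43444072 to 43457800) on chromosome 7. Myo6 lies on chromosome 9 from 80164976 to 80311729, Ccdc117 on chromosome 11 from 5528887 to 5542217, Atp6v1d on chromosome 12 from 78842982 to 78862008, and Zfp72 on chromosome 13 from 74369321 to 74390861. All are annotated as protein coding.

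Upstream sequences differed widely among them. The following 5 are shown because 150 bases or more just before an annotated start lay in no gene. Each is that stretch, from RefSeq's table of GRCm38.p6 promoters, written 5′ to 3′ on the strand of the gene, with GC boxes (GGGCGG or CCGCCC) and CCAAT boxes (CCAAT or ATTGG) in capitals. They are chr1:65186480-65186639 (minus strand) for Idh1, chr6:117861774-117862023 (plus) for Zfp239, chr13:74390862-74391079 (minus) for Zfp72, chr7:16875067-16875316 (plus) for Dact3 and chr9:80164784-80164975 (plus) for Myo6.
Idh1: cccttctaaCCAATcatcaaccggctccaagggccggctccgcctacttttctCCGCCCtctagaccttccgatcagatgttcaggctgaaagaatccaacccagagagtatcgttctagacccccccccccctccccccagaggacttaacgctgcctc
Zfp239: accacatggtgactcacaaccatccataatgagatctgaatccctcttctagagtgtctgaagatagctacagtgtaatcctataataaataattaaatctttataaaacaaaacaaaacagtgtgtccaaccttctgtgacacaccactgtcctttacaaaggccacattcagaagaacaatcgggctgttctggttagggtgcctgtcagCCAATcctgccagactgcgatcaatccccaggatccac
Zfp72: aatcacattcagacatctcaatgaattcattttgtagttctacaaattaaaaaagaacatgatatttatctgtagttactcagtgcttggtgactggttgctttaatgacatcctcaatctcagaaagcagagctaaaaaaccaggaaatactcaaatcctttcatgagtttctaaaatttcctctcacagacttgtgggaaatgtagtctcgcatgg
Dact3: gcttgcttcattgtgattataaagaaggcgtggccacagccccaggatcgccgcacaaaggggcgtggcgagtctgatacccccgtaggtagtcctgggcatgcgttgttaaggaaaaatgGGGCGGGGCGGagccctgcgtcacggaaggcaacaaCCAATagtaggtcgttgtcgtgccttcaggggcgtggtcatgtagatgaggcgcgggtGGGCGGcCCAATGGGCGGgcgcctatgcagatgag
Myo6: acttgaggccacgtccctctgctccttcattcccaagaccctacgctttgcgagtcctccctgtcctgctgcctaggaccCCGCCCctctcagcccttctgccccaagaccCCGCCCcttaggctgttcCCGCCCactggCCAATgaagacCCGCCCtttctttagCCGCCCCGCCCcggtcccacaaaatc
The Idh1 stretch of 160 bases is the whole gap between Idh1 and its neighbour Pikfyve and holds 1 GC box and 1 CCAAT box. Dact3 has 4 GC boxes and 2 CCAAT boxes, and Myo6 has 6 and 1. Zfp239 has no GC box and 1 CCAAT box, and Zfp72 has neither. Over the 250 bases before each start, Plcb4 had a window of 85.2% G and C, while a window of Zfp72 inside the gene had 27.2%, beside a median of 52.4% over all 32851 windows. A promoter entry was found for 9 of the 10 genes, not for Ccdc117. Of these 9, 5 held a GC box in at least 1 window, 7 a CCAAT box, 4 a TATAAA, 4 a TGACG, 8 an AACNG and 0 a CACGTG, searched on both strands with overlapping matches allowed. Over all windows the shares were 32.7%, 33.8%, 12.4%, 17.8%, 74.2% and 6.02%; genes with more than 1 window have more chances of a match. No motif was held by all 9 genes.

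Total counts ran from 15.3 to 24.9 M in the round spermatid libraries and from 14.2 to 16.5 M in the CB libraries. Levels are given as CPM, counts relative to the TMM-scaled library size, and changes as log2 differences fitted by edgeR's quasi-likelihood method. Of the round spermatid libraries, wild-type library 1 stood apart: genes under 1000 bases took 19.3% of its counts against 11.3% to 12.7% in the other 5. In it 12 late spermatid markers also summed to 31007 CPM, against 19987 to 21538 in the other 5. Whether these shifts are linked was not tested. Ddx4, whose allele defines the groups, stood at 443 and 521 CPM in wild-type round spermatids, at 406 and 403 in heterozygous and at 121 and 130 in homozygous ones. In CB it stood at 277 to 365 CPM in heterozygotes and 244 to 306 in homozygotes, with a log2 difference of -0.16 (edgeR adjusted p = 0.649, not past the threshold). Round spermatid marker genes were well above 0 in every round spermatid library (summed levels of 2455 to 3320 CPM over 10 genes).

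In round spermatids every homozygous library was below every wild-type and every heterozygous library for all 10 genes. The 2 homozygous libraries lay close together for each gene, and the wild-type pair was more widely spread. Since the genes were listed for being low in these libraries, that order is what the choice fixed. Over all 17809 genes, 25% had both homozygous libraries below both wild-type ones and 32% had them below both heterozygous ones. The same order held in the deposited TPM for all 10 genes.

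**Figure D1:**
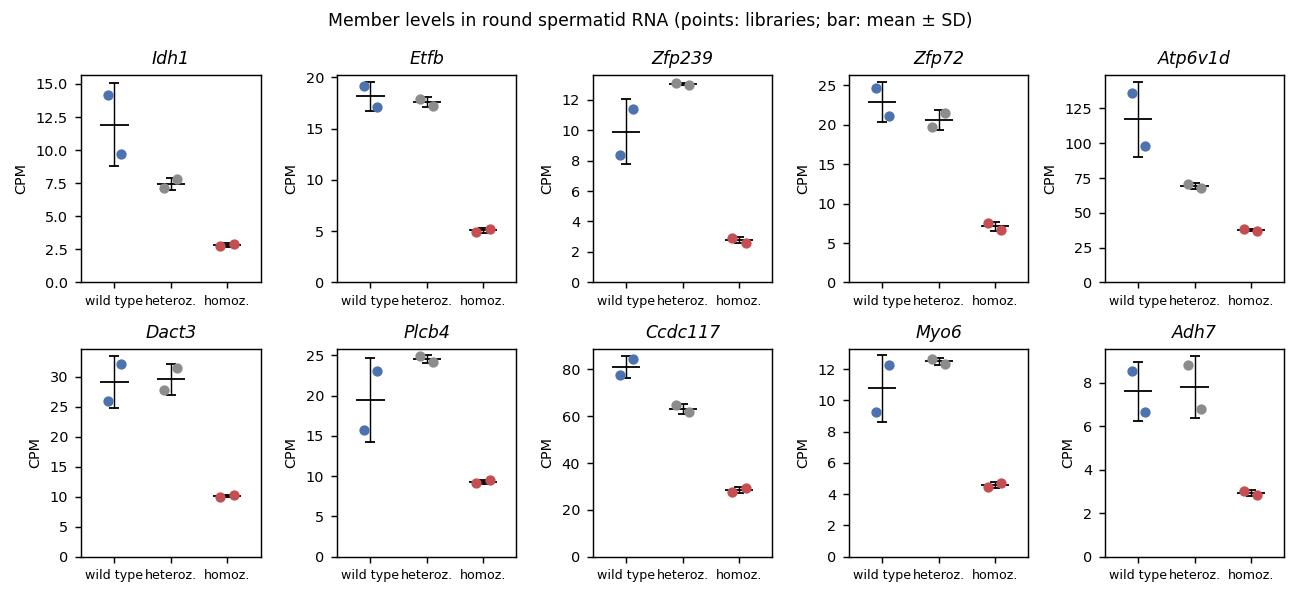
Level of each gene in round spermatid RNA, in TMM-scaled CPM (vertical axes start at 0), by genotype; points are libraries and bars the mean ± SD of 2 libraries. Both homozygous points lie below all other points in every panel, while the heterozygous points lie below the wild-type pair for Idh1, Atp6v1d and Ccdc117 only.

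Among the metabolic genes, Idh1 had 14.2 and 9.70 CPM in wild-type libraries 1 and 2, 7.15 and 7.79 in heterozygotes, and 2.72 and 2.94 in homozygotes. On this scale the 3 genotypes did not overlap, but in the deposited TPM wild type (7.43 and 5.99) and heterozygotes (4.66 and 7.53) did. The log2 difference of homozygotes was -2.07 from wild type and -1.40 from heterozygotes, and that of heterozygotes from wild type -0.67 (-0.38 without wild-type library 1). Etfb had 19.1 and 17.2 CPM in wild type, 17.9 and 17.2 in heterozygotes, and 4.93 and 5.24 in homozygotes. Here the heterozygous and wild-type libraries overlapped, with log2 differences of -1.83, -1.79 and -0.04 in the same order. Adh7 had 8.56 and 6.66 CPM in wild type, 8.83 and 6.81 in heterozygotes, and 3.03 and 2.83 in homozygotes. It showed the same 2-level pattern, with log2 differences of -1.37, -1.42 and 0.05, on few reads: 54 and 59 counts in the homozygous libraries.

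Atp6v1d, the V-ATPase gene, was lower at each step from wild type to heterozygotes to homozygotes. It had 136 and 98.0 CPM in wild type, 70.6 and 67.7 in heterozygotes, and 38.4 and 37.2 in homozygotes. The log2 difference of homozygotes was -1.63 from wild type and -0.87 from heterozygotes, that of heterozygotes from wild type was -0.76, and the genotypes were apart in TPM too. The heterozygous difference was -0.50 without wild-type library 1 and -0.98 without library 2. Ccdc117 was likewise apart in CPM, with 77.7 and 84.5 CPM in wild type, 64.6 and 61.6 in heterozygotes, and 27.6 and 29.4 in homozygotes. In TPM, wild type (24.2 and 32.6) and heterozygotes (25.7 and 24.1) overlapped. Heterozygotes differed from wild type by -0.36, and homozygotes from heterozygotes by -1.15.

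Of the signalling and motor genes, Dact3 had 26 and 32.2 CPM in wild type, 27.7 and 31.4 in heterozygotes, and 9.97 and 10.2 in homozygotes. Heterozygous and wild-type libraries interleaved (log2 0.02), and homozygotes differed by -1.53 from wild type and -1.55 from heterozygotes. Plcb4 had 15.8 and 23.1 CPM in wild type, 24.9 and 24.2 in heterozygotes, and 9.09 and 9.49 in homozygotes. Its heterozygous libraries lay above both wild-type ones (0.33), and its difference from wild type, -1.07, was the smallest of the 10, beside -1.40 from heterozygotes. Myo6 had 9.26 and 12.3 CPM in wild type, 12.7 and 12.3 in heterozygotes, and 4.47 and 4.72 in homozygotes. The heterozygous values were again the upper ones, and the log2 differences were -1.23, -1.44 and 0.21.

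The zinc finger genes were both low in homozygotes. Zfp239 had 8.39 and 11.4 CPM in wild type, 13.1 and 13.0 in heterozygotes, and 2.93 and 2.62 in homozygotes. With heterozygotes above wild type by 0.39, its difference from heterozygotes, -2.23, exceeded that from wild type, -1.83. Zfp72 had 24.7 and 21.1 CPM in wild type, 19.8 and 21.6 in heterozygotes, and 7.50 and 6.71 in homozygotes. Its heterozygous libraries overlapped the wild-type pair (-0.15), and homozygotes differed by -1.69 and -1.54. Zinc finger genes come in families of related sequence, and the sources used here do not say how reads shared between copies were assigned, so both levels are uncertain to that extent.

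The comparison of heterozygous with wild-type round spermatids shares its libraries with the 2 comparisons above, so its values are set beside theirs and not tested on their own. The 10 genes had no common direction there: the fitted value was below 0 for 5 and above 0 for 5, with a median of -0.01, equal to the median of -0.01 over all genes. Both heterozygous libraries lay below both wild-type ones for 3 genes (22.1% of all genes did so), Idh1, Atp6v1d and Ccdc117, and above them for 3 genes (22.5% of all genes), Zfp239, Plcb4 and Myo6. EdgeR called 0 genes in this comparison (0% of those tested), while 1296 (7.28%) had a p under 0.05 before adjustment; DESeq2 called 5. The count depended on the wild-type libraries, with 135 called without library 1 and 7878 without library 2.

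Wild-type library 1 moved the sizes of the homozygous differences from wild type but no direction. Without it they ran from -1.18 for Adh7 to -2.03 for Zfp239, and Idh1 stood at -1.78. Without wild-type library 2 they ran from -0.76 for Plcb4 to -2.32 for Idh1. With either homozygous library left out, edgeR called 0 genes in all. Fitted on the 4 compared libraries alone, edgeR called 5 genes. Against heterozygotes, leaving out any 1 of the 4 libraries gave 0 calls in all, and fitting those 4 alone gave 5553.

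Levels of different genes were compared per unit of length, in the length-scaled TPM unit deposited by the authors. In wild-type round spermatids Atp6v1d was highest, at 107 ± 7.06 TPM, followed by Etfb at 35.2 ± 6.94 and Ccdc117 at 28.4 ± 5.99 (SD, n = 2). The latter pair overlapped, with 30.3 to 40.1 and 24.2 to 32.6 TPM. Dact3 (11.7 ± 3.52) and Zfp72 (10.9 ± 0.495) came next and overlapped too. Plcb4 (7.97 ± 3.25) overlapped Idh1 (6.71 ± 1.02) and, at 5.67 to 10.3 TPM, also Dact3 at 9.22 to 14.2. The 3 lowest, Zfp239 (4.29 ± 1.56), Myo6 (3.69 ± 0.212) and Adh7 (3.16 ± 0.905), overlapped in neighbouring pairs. In heterozygous CB libraries the order differed: Atp6v1d (56.5 ± 4.13 TPM, n = 3) and Ccdc117 (53.9 ± 5.84) overlapped at the top, Etfb (42.0 ± 5.13) and Plcb4 (36.6 ± 2.33), which overlapped, followed, and Zfp239 was lowest at 3.63 ± 1.43. Kit, RNA input and labelled cell type differ between the kinds of library and cannot be told apart, so levels were not tested between them.

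The genes were listed for their round spermatid values and not by a CB value, although CB results were known when the list was drawn up. Homozygous and heterozygous CB libraries were compared by test with that limit. Plcb4, Etfb and Dact3 fell in homozygotes, 3 of the 10 genes, where 0.559% of all 19335 genes were called lower and 1.72% were called in either direction. The other 7 did not pass the test, but all 10 fitted values were below 0, as were 50.7% of all genes, and their median was -0.73 beside -0.0048 over all genes. For 6 of the 10, Etfb, Zfp239, Atp6v1d, Dact3, Plcb4 and Myo6, every homozygous library lay below every heterozygous one in CPM, against 9.78% of all genes. In TPM, Zfp239 and Myo6 overlapped between genotypes and Idh1 did not. An unadjusted p under 0.05 with a lower value was reached by 7 of the 10, against 6.87% of all genes.

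**Figure D2:**
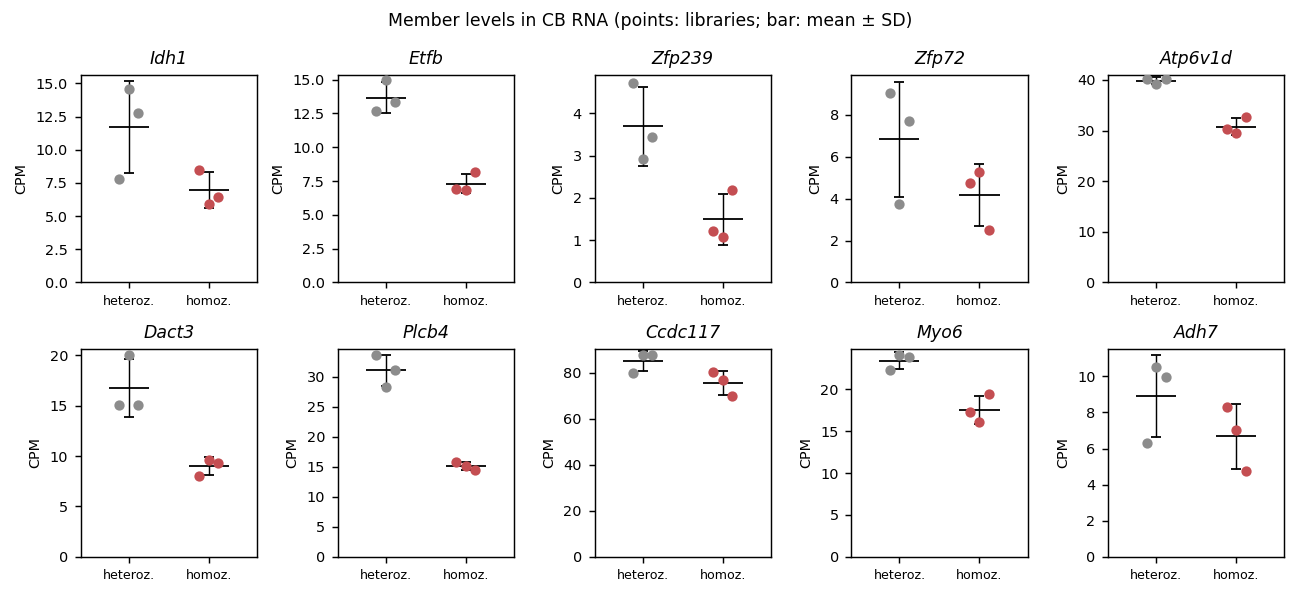
Level of each gene in CB RNA, in TMM-scaled CPM (vertical axes start at 0), for heterozygous and homozygous knock-in animals; points are libraries and bars the mean ± SD of 3 libraries. The genotypes are separated in 6 panels (Etfb, Zfp239, Atp6v1d, Dact3, Plcb4, Myo6) and overlap for Idh1, Zfp72, Ccdc117 and Adh7.

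Plcb4 showed the clearest difference. It had 33.7, 28.4 and 31.2 CPM in heterozygous libraries 1 to 3 and 15.8, 15.2 and 14.5 in homozygous ones, a fall of 31.1 ± 2.64 to 15.2 ± 0.689 CPM (SD, n = 3). The lowest heterozygous library was well above the highest homozygous one. The log2 change was -1.03 (SE 0.119, edgeR adjusted p = 0.00297). It passed the threshold in all 11 alternative analyses, at an adjusted p of at most 0.0386.

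Etfb had 12.7, 15.0 and 13.4 CPM in heterozygotes and 6.92, 6.87 and 8.14 in homozygotes. The groups did not overlap, and the log2 change was -0.90 (SE 0.147, edgeR adjusted p = 0.0145). Leaving out heterozygous library 2 or 3 raised the adjusted p to 0.0644 and 0.051, and leaving out homozygous library 1, 2 or 3 to 0.126, 0.111 and 0.0535. Dact3 had 15.0, 20.0 and 15.1 CPM in heterozygotes and 8.01, 9.65 and 9.36 in homozygotes. Its groups were apart as well, with heterozygous library 2 highest, and the log2 change was -0.89 (SE 0.160, edgeR adjusted p = 0.0222). Without heterozygous library 2 or homozygous library 1, 2 or 3 its adjusted p was 0.0794, 0.153, 0.108 and 0.106. With 2 libraries left in a group, both changes thus lost the call under several omissions, at log2 values of -0.74 to -0.99.

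A further 3 genes were apart between genotypes in CPM without passing the test. Atp6v1d had 40.3, 39.2 and 40.2 CPM in heterozygotes and 30.3, 29.4 and 32.7 in homozygotes, a log2 difference of -0.37 (SE 0.103, edgeR adjusted p = 0.116). Myo6 had 22.3, 24.1 and 23.9 CPM against 17.2, 16.1 and 19.4, a difference of -0.41 (SE 0.121, edgeR adjusted p = 0.134). Both sets of libraries were tight, and the differences were small. Zfp239 had 4.73, 2.92 and 3.43 CPM in heterozygotes and 1.21, 1.07 and 2.19 in homozygotes. Its difference of -1.30 was the widest of the 10 but the least precise of these 3 (SE 0.321, edgeR adjusted p = 0.0789), on 17 to 66 counts a library. DESeq2 called it (adjusted p = 0.0168).

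In the remaining 4 genes the genotypes overlapped. Idh1 had 7.81, 14.5 and 12.8 CPM in heterozygotes and 8.49, 5.93 and 6.44 in homozygotes, where heterozygous library 1 fell below the highest homozygous one. The difference was -0.75 (SE 0.235, edgeR adjusted p = 0.162). Adh7 had 6.30, 10.51 and 9.95 CPM against 8.31, 7.0 and 4.74, again with heterozygous library 1 low, and differed by -0.42 (SE 0.246, edgeR adjusted p = 0.49). Zfp72 was the most scattered, with 9.03, 3.76 and 7.71 CPM against 4.73, 5.30 and 2.49, and a difference of -0.71 (SE 0.342, edgeR adjusted p = 0.378). Ccdc117 had 80.1, 87.5 and 87.7 CPM against 80.3, 76.7 and 69.7. Homozygous library 1 matched the lowest heterozygous one, and the difference of -0.17 was the smallest of all (SE 0.101, edgeR adjusted p = 0.494).

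**Figure D3:**
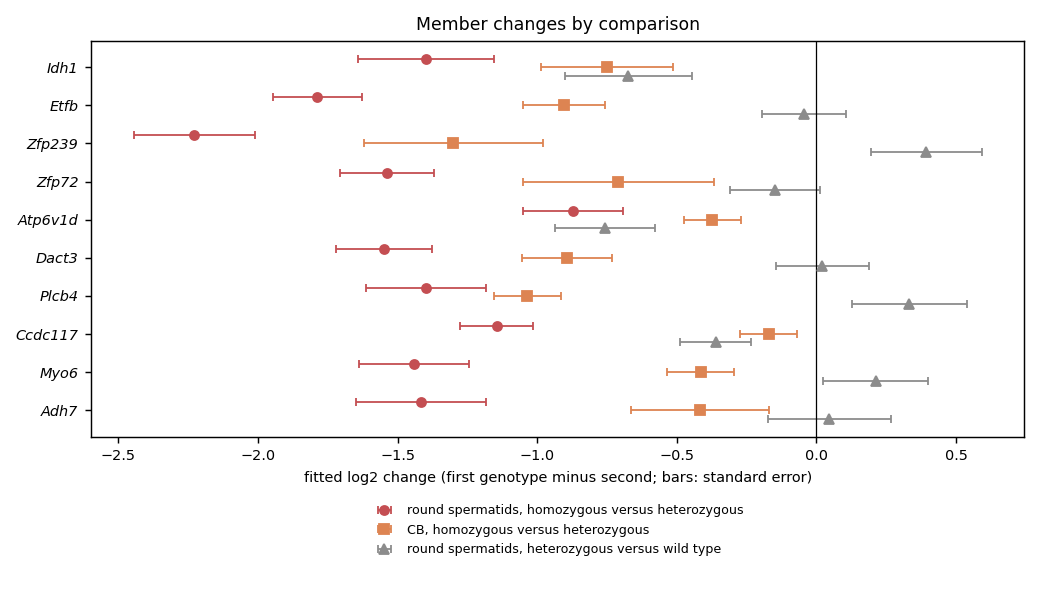
Fitted log2 differences of each gene with their standard errors. Shown are homozygous against heterozygous and heterozygous against wild-type round spermatids, and homozygous against heterozygous CB libraries. The homozygous differences are below 0 throughout, those of heterozygotes from wild type scatter around 0, and in CB the values run from -0.17 for Ccdc117 to -1.30 for Zfp239.

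Set beside round spermatids, the differences of homozygotes from heterozygotes in CB kept the sign in all 10 genes. The choice of genes fixed that sign on the round spermatid side. CB results were known when the list was drawn up, so the CB side may not be free of the choice. Plcb4 stood at -1.40 in round spermatids and -1.03 in CB, Idh1 at -1.40 and -0.75, Dact3 at -1.55 and -0.89, and Etfb at -1.79 and -0.90. Ccdc117 stood at -1.15 and -0.17. Whether the 2 differences of a gene differ was not tested, since the round spermatid value chose the genes.

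Summed levels of markers of other cells also differed by genotype. In round spermatid RNA the summed level of 14 Sertoli cell markers was 58.4 to 71.1 CPM in wild-type libraries. It was 60.1 to 60.3 in heterozygous and 33.4 to 35.8 in homozygous ones. Against wild type, 2 of the 10 tested genes were called lower, beside 0.472% of all genes. The 10 immune markers summed to 16.2 to 16.5, 25.9 to 26.7 and 36.7 to 38.5 CPM in the same order. Of 9 tested against wild type, 2 were called higher, beside 2.39% of all genes, and 0 had a fitted value below 0. The 9 Leydig cell markers summed to 6.70 to 9.54, 9.23 to 11 and 15.7 to 17.4 CPM. Of 5 Leydig cell markers tested against wild type, 1 was called higher, beside 2.39% of all genes. The fitted value was below 0 for 3 of the 5 (median log2 -0.0067), so the higher sum was not shared across the list. The 11 peritubular and vascular markers summed to 283 to 285, 266 to 274 and 182 to 187 CPM. That lower sum was not shared across the list. Of 10 tested against wild type, 2 were called higher and 1 lower, beside 2.39% and 0.472% of all genes. Only 4 had a fitted value below 0, and the median log2 difference was 0.11. The 10 spermatocyte markers summed to 567 to 578, 560 to 582 and 691 to 705 CPM. Against wild type 1 of them was called higher, beside 2.39% of all genes, and 3 had a fitted value below 0. The 10 round spermatid markers summed to 2991 to 3320, 2875 to 2950 and 2455 to 2504 CPM. Against wild type 0 of them were called, and 9 had a fitted value below 0. In CB, 12 late spermatid markers summed to 5817 to 6926 CPM in heterozygotes and 4737 to 5093 in homozygotes. Of the 12, 6 were called lower, beside 0.559% of all genes, and the median log2 change was -0.62. The immune markers summed to 6.73 to 12.7 and 15.1 to 17.2 CPM. Of 8 tested, 1 was called higher, beside 1.16% of all genes. Leydig cell markers summed to 97.3 to 160 and 174 to 187 CPM, with 0 of 9 called and 0 fitted below 0. Round spermatid markers summed to 503 to 541 and 448 to 466 CPM. Of 10 tested, 1 was called lower and 9 had a fitted value below 0. The Sertoli, peritubular and vascular, spermatogonia and spermatocyte sums overlapped between genotypes. Heterozygous CB library 1 stood apart from the other heterozygotes, with Sertoli markers at 85.8 CPM against 155 and 144, and Leydig cell markers at 97.3 against 160 and 159. Without it edgeR called 6 of the 10 genes lower in CB, adding Idh1 (adjusted p = 0.00461), Atp6v1d (0.0172) and Myo6 (0.0199). No marker was at 0 in every library of a kind. The part of these shifts in the levels of the 10 genes was not tested, and in RNA of many cells fewer cells of a type and less RNA per cell cannot be told apart.

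Lists of related genes were made for 7 of the genes, and the listed gene itself was left out. Of 107 other genes tested in CB, 3 were called (2.8%), beside 1.72% of all genes. The electron transfer flavoprotein list had 16 tested genes besides Etfb, 0 called and a median of 0.10. Etfa, whose product pairs with that of Etfb, had 3.20 ± 0.759 CPM in homozygotes and 3.41 ± 1.81 in heterozygotes (log2 -0.09, SE 0.38), and Etfdh, the enzyme they pass electrons to, 19.6 ± 1.22 and 20.4 ± 0.963 CPM (-0.05, SE 0.116). The list of NADP(H)-forming and related dehydrogenases had 17 tested, 0 called and a median of -0.02. Idh2, the mitochondrial counterpart of Idh1, was low at 1.05 ± 0.145 and 0.678 ± 0.464 CPM. Of 20 other V-ATPase genes 0 were called (median -0.02), with Atp6v1e2 at -0.44 and Atp6v1a at 0.34 (adjusted p = 0.133 and 0.151 in edgeR). The alcohol and retinol dehydrogenases had 12 tested and 0 called (0.03), and the Dact and Dishevelled genes 5 and 0 (0.12), with Dvl1 at 0.45 (edgeR adjusted p = 0.068).

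Only the phospholipase and myosin lists held a called gene in CB, and the calls were in the opposite direction. Of 10 genes of phospholipase C beta signalling besides Plcb4, 1 rose and 0 fell (median 0.11), where 1.16% of all genes were called higher. Plcb2, a paralogue of Plcb4, rose from 37.7 ± 9.26 to 79.3 ± 5.06 CPM in homozygotes (log2 1.07, SE 0.158, edgeR adjusted p = 0.0096). Of 27 myosins and Myo6 adaptors, 2 rose and 0 fell (median 0.13): Myo15, an unconventional myosin, from 16.2 ± 0.70 to 28.1 ± 2.43 CPM (0.80, edgeR adjusted p = 0.0103), and Myo1e, a class I myosin, from 14.5 ± 2.26 to 25.0 ± 2.72 CPM (0.79, edgeR adjusted p = 0.0264).

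**Figure D4:**
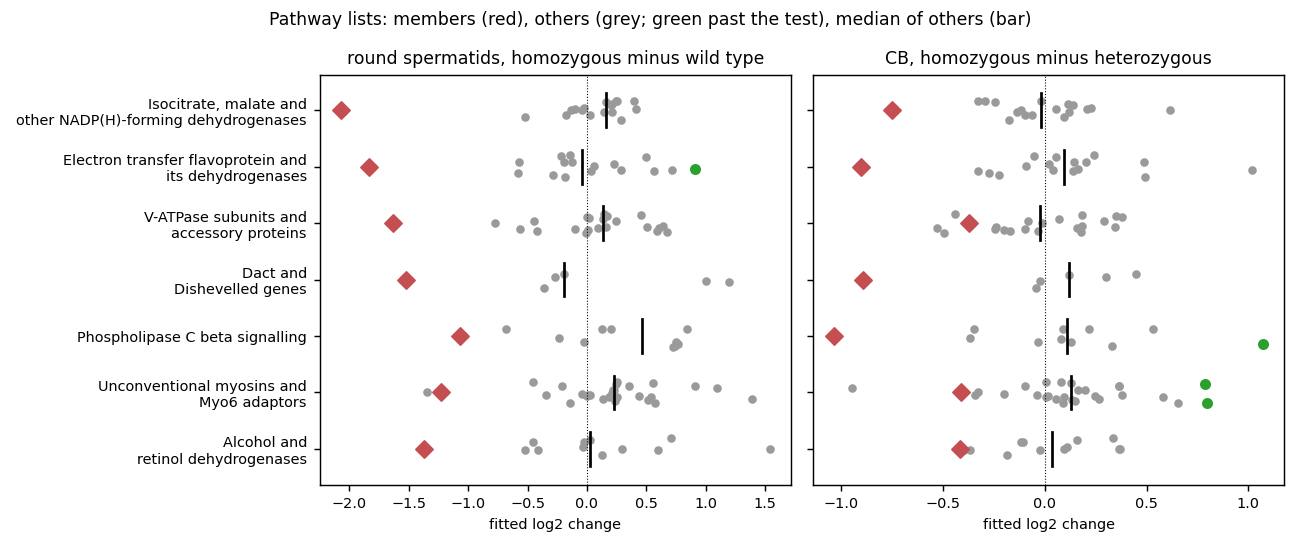
Fitted log2 differences of the genes in the 7 pathway lists, homozygous against heterozygous CB libraries and homozygous against wild-type round spermatids, with the followed gene of each list as a red diamond, the other genes as grey points (green where past the test) and their median as a bar. In CB the medians of the other genes run from -0.02 to 0.13, and the 3 called genes lie above 0.

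In homozygous against wild-type round spermatids the same lists held 1 call besides the followed genes, where 2.86% of all genes were called in either direction. Acadvl, the very long-chain acyl-CoA dehydrogenase that feeds electrons to the flavoprotein, rose from 7.46 to 14 CPM (log2 0.91, SE 0.159, edgeR adjusted p = 0.0438). In that list 16 genes were tested besides Etfb, with a median of -0.04, and Etfa (0.06) and Etfdh (-0.22) did not pass the test. The other lists had 0 called of 17 dehydrogenases (median 0.16), 21 V-ATPase genes (0.13), 5 Dact and Dishevelled genes (-0.19), 10 phospholipase C genes (0.46), 27 myosins and adaptors (0.22) and 11 alcohol and retinol dehydrogenases (0.02). Dvl1 (1.00) and Myo1e (1.09) lay near the threshold (edgeR adjusted p = 0.0617 and 0.0802). Against heterozygous round spermatids 0 of these genes were called (1.73% of all genes were), and the medians ran from -0.19 for myosins and adaptors, with 20 of 27 below 0, to 0.17 for V-ATPase genes. The phospholipase C median was 0.05 there.

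Neighbouring genes, chosen by position after their values were seen, gave a mixed picture. Etfb and Cldnd2, a claudin-domain gene, overlap by 59 bases. Cldnd2 fell in CB from 11 ± 0.512 to 5.73 ± 0.612 CPM (log2 -0.95, SE 0.151, edgeR adjusted p = 0.0132), beside -0.90 for Etfb. In round spermatids its difference from wild type, -0.81, missed the threshold (edgeR adjusted p = 0.162). It had 41.7 CPM in wild-type library 1, the one that stood apart in short genes, against 23.4 in library 2, 24.1 and 23.6 in heterozygotes and 19.0 and 18.0 in homozygotes. The sources used here do not say how reads in the overlap were assigned, and their part was not tested.

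Pikfyve, a lipid kinase gene 160 bases from Idh1, did not go with it: its difference was 0.70 from wild type in round spermatids and 0.17 in CB (edgeR adjusted p = 0.245 and 0.655). Eif2s1, a translation initiation factor gene 63 bases from Atp6v1d, was at -0.01 and 0.18. The RNA gene 9330104G04Rik, 430 bases from Dact3, was at -0.11 in round spermatids and -0.45 in CB (edgeR adjusted p = 0.283). Adh7 overlaps the long non-coding RNA gene 0610031O16Rik, which averaged at most 0.033 CPM in any round spermatid group and 0.685 in CB.

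Isoform tables split each gene into its annotated transcripts. The 10 genes had 59 of them, of which 17 passed the filter in round spermatids and 20 in CB. Dact3 and Ccdc117 had a single transcript. In Atp6v1d, transcripts ENSMUST00000021536 (3667 bases) and ENSMUST00000219316 (775 bases) were lower together in homozygous round spermatids. The shorter one made up 76.7% ± 0.396 of the TPM of the gene in wild-type libraries, 74.9% ± 1.92 in heterozygous and 75.3% ± 6.75 in homozygous ones (SD, n = 2). By expected counts its share was smaller, at 32.4%, 29.6% and 31.2%, since TPM is divided by length. By TPM the shares differed by less than the spread of the homozygous pair, while the level of the gene differed by -1.63 (log2) between homozygotes and wild type.

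**Figure D5:**
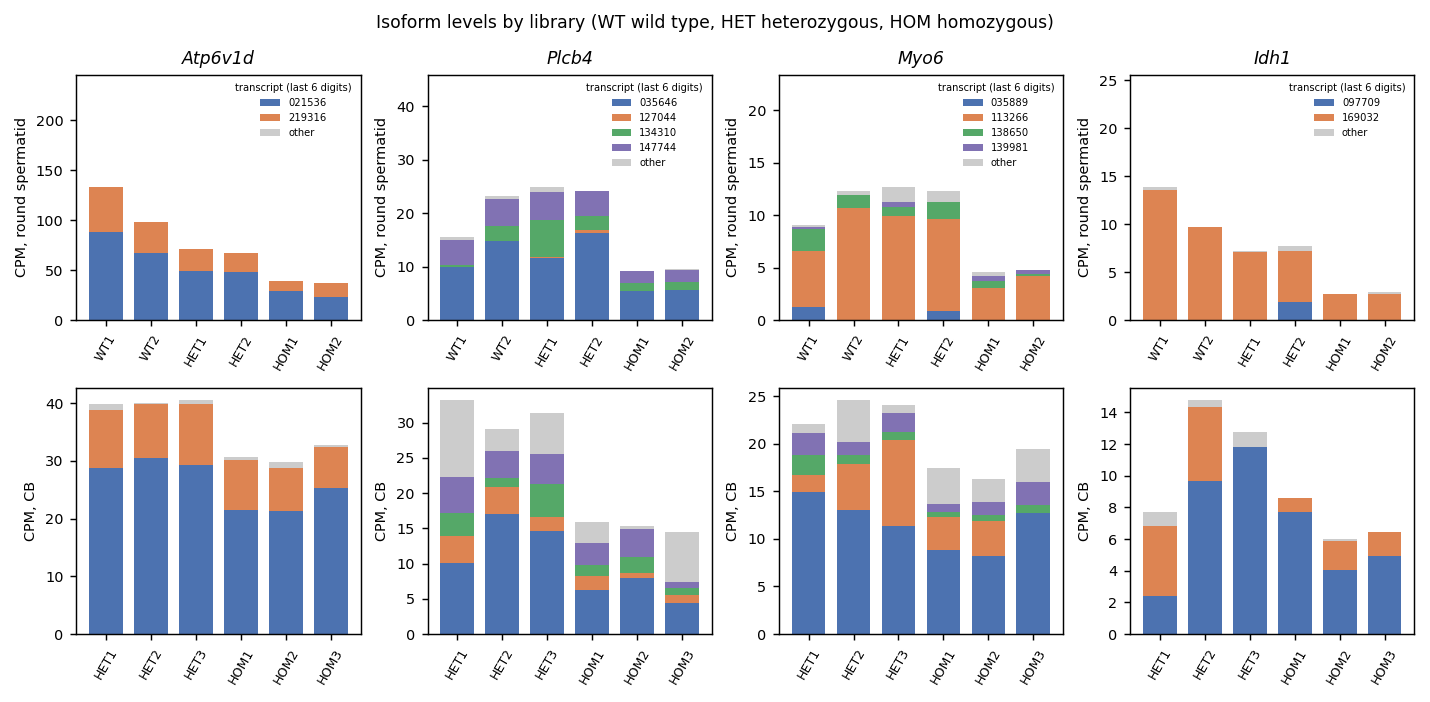
Stacked levels of the transcripts of Atp6v1d, Plcb4, Myo6 and Idh1 in each library, in TMM-scaled CPM, for round spermatid RNA (top) and CB RNA (bottom); colours stand for transcripts, named by the last 6 digits of their Ensembl identifier, and grey for the rest. Homozygous bars are shorter with a like make-up in Atp6v1d, and ENSMUST00000169032 holds nearly all Idh1 counts in 5 of the 6 round spermatid libraries but not in CB.

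The transcripts of Idh1 had different shares in the 2 kinds of library. In round spermatids ENSMUST00000169032 held 92.7% ± 5.71 of its TPM in wild type, and ENSMUST00000097709 was estimated at 0% there and in homozygotes. In CB the latter had 51.4% ± 27.0 in heterozygotes and 76.6% ± 12.9 in homozygotes (n = 3). ENSMUST00000169032 had 22.9% ± 20.4 and 21.4% ± 10.2 there, and in heterozygous CB library 1 it was ahead, at 4.39 against 2.41 CPM. These shares were widely scattered. Both transcripts are of like length (2283 and 2302 bases), and their split is an estimate whose assignment error is not in these SDs.

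The leading transcript of Myo6 depended on the measure. By counts, ENSMUST00000113266 had 3.04 and 4.18 CPM in homozygous round spermatids and 9.93 and 8.78 in heterozygotes, while ENSMUST00000035889 led in CB with 9.89 ± 2.42 CPM in homozygotes and 13.1 ± 1.76 in heterozygotes. By TPM, the 695-base ENSMUST00000139981 led in homozygous round spermatids (51.9%) and in both CB groups (45.9% in heterozygotes, 47.3% in homozygotes). In wild-type round spermatids ENSMUST00000138650 led (50.2%). The share of ENSMUST00000139981 in homozygous round spermatids rests on few reads, at 0.421 ± 0.0716 CPM and 9.11% of the counts of the gene. It did not pass the filter on low counts in round spermatids. Plcb4 was spread over more transcripts. Its leading one in CB by TPM was ENSMUST00000127044 (38.5% in heterozygotes and 34.6% in homozygotes). The leading one by counts, ENSMUST00000035646, had 6.17 CPM in homozygous and 14 in heterozygous CB libraries (log2 -1.18, SE 0.294, edgeR adjusted p = 0.345), and ENSMUST00000127044, ENSMUST00000134310 and ENSMUST00000147744 differed by -1.25, -0.91 and -0.76. In Zfp72 the 2 transcripts went apart in CB, with ENSMUST00000223163 at -1.10 (SE 0.412) and ENSMUST00000091481 at -0.15 (SE 0.531), but the difference between them was not tested. In round spermatids they were low together in homozygotes, at -1.53 and -1.88 from wild type. Of 41748 isoforms tested in CB edgeR called 3 (0.00719%), and none was of these genes (adjusted p = 0.208 for the Etfb transcript ENSMUST00000004729 and 0.238 for the Dact3 transcript ENSMUST00000108493). DESeq2 called 768 in all.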

How the data were processed

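Mouse round spermatid RNA (6 libraries) and CB RNA (6 libraries), of 24 libraries in all, were analysed; the small RNA libraries were not used here. Per the labels' protocols, round spermatid libraries were made with the NEBNext Ultra kit and CB libraries with the strand-specific Hieff kit from less RNA, without selection of polyadenylated RNA or removal of ribosomal RNA. The submitters' processing notes name Trim Galore (no version) and mm10; for the quantifier and aligner nothing is stated in the sources used here. Per the file headers, the authors deposited expected counts, that is, estimated reads that need not be whole, with TPM per gene and isoform. The isoform tables deposited by the authors also give each isoform's percent of the TPM of its gene. TPM is scaled for length and library size and was used here for levels between genes and, beside CPM, for the order of libraries.

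Expected counts were rounded and tested with edgeR 4.0.16 in R 4.3.3 (quasi-likelihood F test with TMM scaling, low counts removed with filterByExpr by group), Benjamini-Hochberg adjusted over all features tested, threshold 0.05. The 6 libraries of a kind were fitted together. SE is the log2 change divided by the root of F. Fits were also run on counts simulated from their own estimated spread with known changes. Such counts cannot show whether that estimate holds for these libraries. Alternatives were DESeq2 1.42.0 (its test, and its size factors in edgeR), no filter, the replicate number as a block, a removed length trend, only the compared libraries, and each library left out. A fit left with 1 library in a group assumes that it varies like the others. Symbols were found for all but 260 genes. Intervals between libraries cover neither assignment error nor, without molecular identifiers, copies of a molecule. The members, pathway lists and marker lists were chosen with earlier results of these data known. Named genes are all 10 members, at most 3 genes of each list with the smallest p, Etfa, Etfdh, Idh2, Ddx4, and isoforms holding at least 10% of their gene.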

Additional observations from a re-analysis of the deposited data

How the results depend on the processing

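DESeq2's size factors in edgeR changed no count of calls by over 1.5 times. Homozygous against wild-type round spermatids, 510 calls became 1692 without the filter, 1287 with DESeq2, 2490 with the length trend removed, 5 in the compared libraries alone, and 0 to 8454 with 1 library left out. Against heterozygotes, 308 became 912, 796, 1747, 5553 and, with 1 library left out, 0 each time. For heterozygotes against wild type, 0 became 6 without the filter, 5 with DESeq2 and 0 to 7878 with 1 library left out. In CB, 332 became 882, 598 and 52 to 2289, and the 3 of the 10 genes called became 5 without the filter and 1 to 6 with 1 library left out. For CB isoforms, 3 became 42, 768 and 0 to 114. The cause of these shifts was not tested.

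With the replicate number as a block, calls were 182 and 12 in homozygous round spermatids against wild type and heterozygotes, 0 for heterozygotes against wild type, 163 for CB genes, 3 of the 10 genes in CB and 0 for CB isoforms. The labels do not say that numbers pair the libraries, and deviations of same-numbered libraries correlated at -0.0125, -0.184 and -0.116 in CB; no homozygous CB library correlated best with its own number. Pairing wild-type and heterozygous numbers crosswise, chosen after seeing a correlation of -0.131, gave 0 calls.

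In CB all 10 differences kept their sign under every alternative. Directions turned only for heterozygotes against wild type, in genes near 0: with the length trend removed Etfb stood at 0.24, Dact3 at -0.15 and Adh7 at -0.16; and with 1 library left out Etfb ranged from -0.12 to 0.037, Dact3 from -0.13 to 0.18 and Adh7 from -0.16 to 0.24. Of those, Etfb turned without wild-type library 1, Dact3 without it or heterozygous library 2 (-0.067), and Adh7 without wild-type library 2 (-0.12) or heterozygous library 1. Depth limits Zfp239 most, with as few as 17 counts in a CB library. Isoform shares by expected counts in place of TPM moved by over 1 SD in 57 of 120 cases.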
